A study of Rattus norvegicus with 9 samples.

Results

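The genes described here are 10 genes of the cellular response to low oxygen, measured in rat liver: Hif1a, Epas1, Egln1, Egln3, Ndrg1, Adm, Slc2a1, Vegfa, Pdk1 and Bnip3. The rule that picks them names genes and no measured value, although the list was drawn up with earlier results of these data known, and all 10 were found among the 32883 genes of the deposited table. Male Sprague-Dawley rats were compared in 3 groups of 3, with 1 liver library for each rat. The normal control rats (N1, N12 and N3) were fed a normal diet. The DEN model rats (M13, M17 and M24) received intraperitoneal diethylnitrosamine (DEN, a chemical that causes liver tumours) at 0.01% every week, over 16 weeks in the full schedule. The PZH administration rats (G27, G28 and G42) received the same DEN injections and, in addition, PZH (Pien-Tze-Huang), a traditional Chinese formula. The PZH dose and the week of collection are not given for the sequenced rats, and because the submitters' treatment label names PZH for M13, M17 and M24 too, the groups follow the letters of the rats' names.

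In cells with enough oxygen, prolyl hydroxylases of the Egln family mark the alpha subunits of hypoxia-inducible factor (HIF), which are then bound by the von Hippel-Lindau protein and degraded. When oxygen falls, the alpha subunits (encoded by Hif1a and Epas1) escape this marking, pair with Arnt and switch on target genes for glucose uptake, blood vessel growth, mitophagy and a brake on mitochondrial fuel use. The alpha subunits are set largely at the protein level, so their mRNA is not a measure of HIF activity. Liver oxygen falls along the lobule from the portal tract to the central vein, and in the adult liver glucose is carried mainly by Slc2a2, not by Slc2a1.

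HIF binds DNA at the core letters ACGTG or GCGTG, and the upstream windows of 5 members are shown because they differ in whether these letters are present. RefSeq promoter windows of the GRCr8 build were found for 9 of the 10 members, with no entry for Ndrg1, and the 250 bases before the start site were searched on both strands. The cores, and their complements CACGT and CACGC, are in capitals, and sites can overlap where a CACGTG is read on both strands. Slc2a1 held 4 sites, at chr5:138002272-138002521 on the + strand. Bnip3 also held 4, of which 2 overlap, at chr1:203154963-203155212 on the - strand. Pdk1 held 2, at chr3:77113264-77113513 on the + strand. Egln3 (chr6:77411016-77411265, - strand) and Adm (chr1:174179950-174180199, + strand) held 0 in these windows.
Slc2a1: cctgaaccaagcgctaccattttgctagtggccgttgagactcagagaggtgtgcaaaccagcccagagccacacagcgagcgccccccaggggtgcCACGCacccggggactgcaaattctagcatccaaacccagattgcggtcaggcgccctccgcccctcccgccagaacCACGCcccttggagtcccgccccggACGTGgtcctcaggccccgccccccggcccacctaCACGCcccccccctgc
Bnip3: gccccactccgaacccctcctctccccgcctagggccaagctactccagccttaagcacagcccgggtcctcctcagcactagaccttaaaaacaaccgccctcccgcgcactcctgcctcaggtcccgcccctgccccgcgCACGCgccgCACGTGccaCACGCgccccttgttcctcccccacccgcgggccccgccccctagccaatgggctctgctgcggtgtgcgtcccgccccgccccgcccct
Pdk1: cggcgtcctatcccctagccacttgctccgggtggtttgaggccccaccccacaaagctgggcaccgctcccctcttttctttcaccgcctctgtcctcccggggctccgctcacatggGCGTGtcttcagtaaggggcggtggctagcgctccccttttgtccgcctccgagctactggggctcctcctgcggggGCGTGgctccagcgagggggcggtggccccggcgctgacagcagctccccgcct
Egln3: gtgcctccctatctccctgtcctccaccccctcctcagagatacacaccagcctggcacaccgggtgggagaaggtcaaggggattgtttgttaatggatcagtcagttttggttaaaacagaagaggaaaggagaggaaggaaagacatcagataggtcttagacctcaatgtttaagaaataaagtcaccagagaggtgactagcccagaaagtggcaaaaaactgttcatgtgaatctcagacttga
Adm: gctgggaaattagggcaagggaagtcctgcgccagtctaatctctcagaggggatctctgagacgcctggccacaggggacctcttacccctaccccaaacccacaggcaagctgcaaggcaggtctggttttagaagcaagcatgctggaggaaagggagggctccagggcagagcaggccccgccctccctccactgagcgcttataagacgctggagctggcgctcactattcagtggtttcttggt
Hif1a held 3 sites, of which 2 overlap, and Egln1 held 1, while Epas1 and both windows of Vegfa held 0. Thus 5 of 9 members (55.6%) held a core, against 12284 of 33469 windows (36.7%) in the whole table and 41 of 65 genes (63.1%) of the wider pathway lists. Member windows were also richer in G and C, with a median of 68.8% against 51.2% over all windows. A match is a run of letters and not a measured binding site, and a window without one says nothing of sites elsewhere in the gene.

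Total counts ranged from 14922973 to 27161496 a rat, with the PZH rat G27 the deepest and all other rats at or below 16641954, and 3 counts corresponded to 0.125 to 0.252 CPM. That floor covers counting error only, whereas the 95% intervals of fold changes below come from the fit and include the spread between rats. CPM values are counts scaled to a common library size after correction with TMM factors, which were 0.731 to 0.799 in the normal rats, 1.21 to 1.58 in the DEN rats and 0.863 to 0.941 in the PZH rats. This correction sets the direction of small changes. Without it, the median of the log2 fold changes over all genes moved from 0.03 to 0.89 for DEN against normal, from 0.01 to -0.67 for PZH against DEN and from -0.02 to 0.21 for PZH against normal. Hepatocyte markers (6 of 6 in the table) summed to 153878 to 163448 CPM in the normal rats, 31639 to 73439 in the DEN rats and 125756 to 164674 in the PZH rats, so the liver label held in each group. Markers of duct cells (6 of 6) summed to 13.4 to 21.1, 235 to 756 and 80.9 to 108 CPM in the same order, those of stellate cells (6 of 6) to 172 to 254, 859 to 2575 and 490 to 591 CPM, and those of cycling cells (6 of 6) to 36.8 to 44.5, 162 to 232 and 59.7 to 120 CPM. The shifts of these and the following lists accompany the changes below, their part in them was not tested, and in whole liver a change in cell numbers and a change in RNA per cell cannot be told apart. Lymphocyte markers (5 of 6 in the table) summed to 4.87 to 6.33, 8.62 to 36.7 and 2.56 to 8.14 CPM, red cell markers (4 of 6) to 299 to 1092, 222 to 2067 and 167 to 241 CPM, endothelial markers (5 of 6) to 335 to 411, 219 to 415 and 295 to 414 CPM and macrophage markers (6 of 6) to 428 to 836, 396 to 531 and 223 to 516 CPM. Of the 5 red cell entries tested for PZH against DEN, in which Hba-a2 stands under 2 identifiers, 4 were called lower, with a median log2 fold change of -2.57. In the same comparison 6 of 6 duct, 4 of 6 stellate, 3 of 6 macrophage, 2 of 6 cycling and 1 of 5 endothelial markers were called lower. Of the hepatocyte markers, 1 of 6 was called higher. Over all genes, 10.3% were called lower and 8.72% higher. The endothelial and macrophage sums mix markers that went opposite ways with DEN against normal. Of 5 endothelial markers, 2 were called higher and 2 lower, with mean CPM of Vwf at 13.6 in normal and 74.8 in DEN rats and of Kdr at 138 and 61.7. Of 6 macrophage markers, 0 were called higher and 2 lower, with 3 log2 fold changes above 0. Of 6 hepatocyte markers, 0 were called higher and 2 lower. Their median log2 fold change was -1.49 under TMM and -0.70 with library totals. Alb weighs most in the hepatocyte sum, with mean CPM of 94940 in normal and 21996 in DEN rats. Over all genes, 25.3% were called higher and 20.5% lower. No marker present in the table was at 0 in a whole group.

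DEN livers held far more mRNA of Egln3, Ndrg1 and Adm than normal livers, and, under TMM, less of Vegfa and Pdk1, whose log2 fold changes were -0.16 and 0.05 without a call when library totals were used. Of the 10 members, 3 were called higher and 2 lower at an adjusted p under 0.05 (edgeR's quasi-likelihood test, Benjamini-Hochberg over all 14255 genes tested). Over all genes the shares were 25.3% higher and 20.5% lower, or 45.8% in either direction, so the number of calls among the members was close to the background. Egln3 and Ndrg1 also passed the study's screening thresholds, a log2 fold change beyond 2 in size and an unadjusted P under 0.001, which 12.3% of all genes passed. Here and below, these thresholds were applied to the fits made here and not to the authors' own fold changes and P-values. With library totals, 8 members were called higher and 0 lower, where 57.0% of all genes were called higher and 6.72% lower. Relative to the median of all genes, 4 members were higher and 6 lower under both scalings.

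PZH livers held less Ndrg1 and Adm than DEN livers and, under TMM, more Pdk1 (-0.04 on the log2 scale, without a call, with library totals). Their Egln3 lay between the levels of the other groups. Of the 10 members, 1 was called higher and 2 lower, against 8.72% and 10.3% of the 14272 genes tested and 19.1% in either direction. At the study's thresholds, which 2.43% of all genes passed, 0 members passed with edgeR or DESeq2, while 4 had an unadjusted p under 0.05 with edgeR. For this comparison the paper reports far more genes at its thresholds than passed in the fit made here. Whether any member is among the paper's genes was not checked. With library totals, 0 members were called higher and 6 lower (all genes, 3.9% and 39.9%), and Pdk1 lost its call. Members called fell to 0 when DEN rat M13 or M24 was left out, to 1 when G27, G28 or G42 was left out, and stayed at 3 without M17. Calls over all genes fell as well, from 19.1% to 1.87% without M13, 5.0% without M24, 14.9% without G27, 7.94% without G28 and 8.22% without G42, and rose to 22.6% without M17, so these member counts lie near their background and say nothing particular to the members.

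Against normal livers, PZH livers still held more Egln3 and Ndrg1. These 2 members were called higher and 0 lower, against 4.07% and 1.15% of the 13348 genes tested and 5.21% in either direction. Egln3 passed the study's thresholds, as did 2.32% of all genes. With library totals the same 2 members were called, beside 6.13% of genes higher and 0.682% lower. Without G28, N1 or N3, 0 members were called, and without N12 only Ndrg1 was, where the share of all genes called was 1.56%, 1.51%, 3.14% and 2.44%. In fits with so few calls, 0 or 1 of 10 members is near the background. The 3 comparisons share rats and are not independent of one another.

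**Figure D1:**
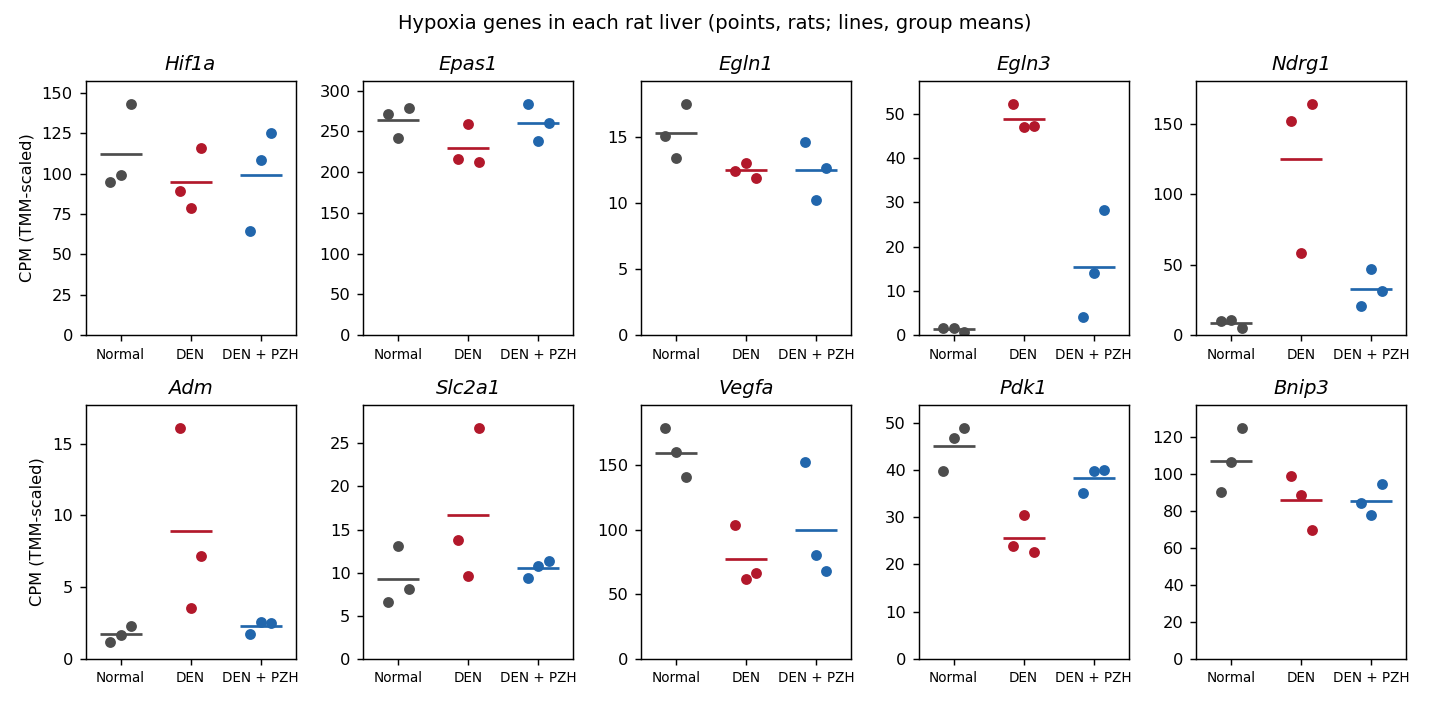
CPM (TMM-scaled, linear axis from 0) of the 10 members in each rat, with points for the 3 rats of a group and lines for group means. Egln3 sat between 47.1 and 52.1 CPM in the DEN rats and at or below 1.72 CPM in the normal rats, while the group ranges of Hif1a overlapped.

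Levels can be compared between genes on the FPKM scale, which divides by transcript length, only as far as the authors' lengths hold. Those lengths were not checked, so the places in the orders below, that of Egln1 among them, depend on them. In the normal rats the mean FPKM was 48.6 for Bnip3, 34.0 for Vegfa, 33.5 for Epas1, 22.1 for Pdk1, 19.0 for Hif1a, 17.6 for Egln1, 2.57 for Slc2a1, 1.99 for Ndrg1, 0.944 for Adm and 0.371 for Egln3. The ranges of Vegfa and Epas1 overlapped, as did those of Pdk1 and Hif1a, of Hif1a and Egln1, of Slc2a1 and Ndrg1, and of Ndrg1 and Adm, so the order within these pairs was not beyond the spread. The other neighbouring pairs did not overlap. In the DEN rats the order was Bnip3 (71.4), Ndrg1 (54.6), Epas1 (53.0), Vegfa (30.5), Hif1a (30.1), Egln1 (26.4), Egln3 (24.7), Pdk1 (22.8), Adm (9.50) and Slc2a1 (8.88), with gaps beyond the spread only between Epas1 and Vegfa and between Pdk1 and Adm. Ndrg1 was thus the highest member in rat M24, the second in M13 and only the sixth in M17. In the PZH rats the order was Bnip3 (45.8), Epas1 (38.9), Vegfa (24.7), Pdk1 (22.1), Hif1a (20.1), Egln1 (16.9), Ndrg1 (8.95), Egln3 (5.09), Slc2a1 (3.44) and Adm (1.50). There, gaps beyond the spread lay between Bnip3 and Epas1, Epas1 and Vegfa, Egln1 and Ndrg1, and Slc2a1 and Adm.

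Among the HIF subunits, Hif1a (ENSRNOG00000008292, protein-coding, chromosome 6, 96810907 to 96856052 in the coordinates of the authors' file, whose build is not given in the sources used here) was measured at 94.6, 99.2 and 143 CPM in N1, N12 and N3, at 89.3, 78.6 and 116 CPM in M13, M17 and M24, and at 64.6, 108 and 125 CPM in G27, G28 and G42. All 3 groups overlapped, and G27 was the lowest rat. The log2 fold change of Hif1a was -0.23 for DEN against normal (95% interval -0.78 to 0.31, adjusted p = 0.451) and 0.67 with library totals, where it was called. It was 0.09 for PZH against DEN (-0.53 to 0.71, adjusted p = 0.843) and turned to -0.59 with library totals. Epas1 (ENSRNOG00000021318, chromosome 6, 10306405 to 10387265), the second alpha subunit, stood at 271, 242 and 278 CPM in the normal rats, 216, 259 and 212 CPM in the DEN rats and 283, 239 and 260 CPM in the PZH rats. On the CPM scale the groups overlapped here too. In FPKM, which rests on library totals, they did not, with 31.8 to 35.4 in normal, 51.6 to 54.8 in DEN and 36.4 to 40.1 in PZH rats. The log2 fold change of Epas1 was -0.19 for DEN against normal (-0.65 to 0.27, adjusted p = 0.471) and 0.66 with library totals, where it was called (adjusted p = 0.014). PZH against DEN gave 0.21 (-0.25 to 0.67, adjusted p = 0.492), and -0.45 without a call with library totals. The FPKM ratio of Hif1a to Epas1 within a rat, which does not depend on scaling, was 0.467 to 0.688 in the normal rats, 0.406 to 0.731 in the DEN rats and 0.306 to 0.645 in the PZH rats. The log2 ratio differed by -0.03 between DEN and normal rats (exact two-sided permutation test, p = 1.0), and its sign changed when single rats were left out.

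The prolyl hydroxylases behaved unlike each other. Egln3 (ENSRNOG00000005053, chromosome 6, 75050329 to 75075795), an oxygen sensor that is itself a HIF target, was measured at 1.72, 1.60 and 0.671 CPM in the normal rats (22, 21 and 8 counts), 52.1, 47.1 and 47.2 CPM in the DEN rats and 4.05, 14.1 and 28.1 CPM in G27, G28 and G42. The 3 groups did not overlap, the DEN rats lay close together, and G27 was the lowest of the PZH rats. Egln3 rose 36.7-fold with DEN (log2 fold change 5.20, SE 0.30, adjusted p = 2.64e-05). Its log2 fold change relative to the median of all genes was 5.17 with TMM and 5.16 with library totals. For PZH against DEN the log2 fold change was -1.66 (SE 0.55, 95% interval -2.92 to -0.40, adjusted p = 0.0683), which missed the threshold. It passed with DESeq2 (adjusted p = 0.0111), with all 9 rats in 1 fit (adjusted p = 0.0468), with library totals (adjusted p = 0.0129), with limma on the FPKM values (adjusted p = 0.0111 and 0.00928 for the added constants 0.1 and 1), without G27 (-1.19, adjusted p = 0.0433) and without G42 (-2.41, adjusted p = 0.0415). It did not pass without a filter (adjusted p = 0.06), with at least 10 counts in every rat (0.0625), or without G28 (0.166), M13 (0.167), M17 (0.0957) or M24 (0.142). In PZH livers Egln3 was 11.5-fold above normal (log2 fold change 3.53, SE 0.69, adjusted p = 0.0215), a call that was lost without G28 (adjusted p = 0.0687), N1 (0.0786), N12 (0.0725) or N3 (0.0727). With a rat left out, the log2 fold change ranged from 2.75 without G42 (adjusted p = 0.0499) to 3.97 without G27.

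Egln1 (ENSRNOG00000019773, chromosome 19, 57662278 to 57699113), the main oxygen sensor of most cells, stood at 15.1, 13.4 and 17.5 CPM in the normal rats, 12.4, 13.03 and 11.9 CPM in the DEN rats and 14.6, 10.2 and 12.6 CPM in the PZH rats. The DEN rats lay just below the normal rats, and the PZH rats spanned both. Its log2 fold change was -0.28 for DEN against normal (-0.71 to 0.15, adjusted p = 0.258) and 0.58 with library totals. PZH against DEN gave 0.03 (-0.44 to 0.51, adjusted p = 0.932) and -0.64 with library totals. Within a rat, the FPKM of Egln3 was 0.00965 to 0.0291 of that of Egln1 in the normal rats, 0.858 to 0.998 in the DEN rats and 0.0665 to 0.530 in the PZH rats. Egln3 mRNA per length thus came close to that of Egln1 in all DEN rats, given the transcript lengths the authors used, which were not checked. In CPM, which does not divide by length, the mean in DEN rats was 48.8 for Egln3 and 12.4 for Egln1. The log2 ratio differed by 5.56 for DEN against normal, -2.04 for PZH against DEN and 3.51 for PZH against normal, each with p = 0.1 in the exact two-sided permutation test, the smallest p that 3 against 3 rats allow. With 12 ratio tests in all, none could reach 0.05, adjusted or not.

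**Figure D2:**
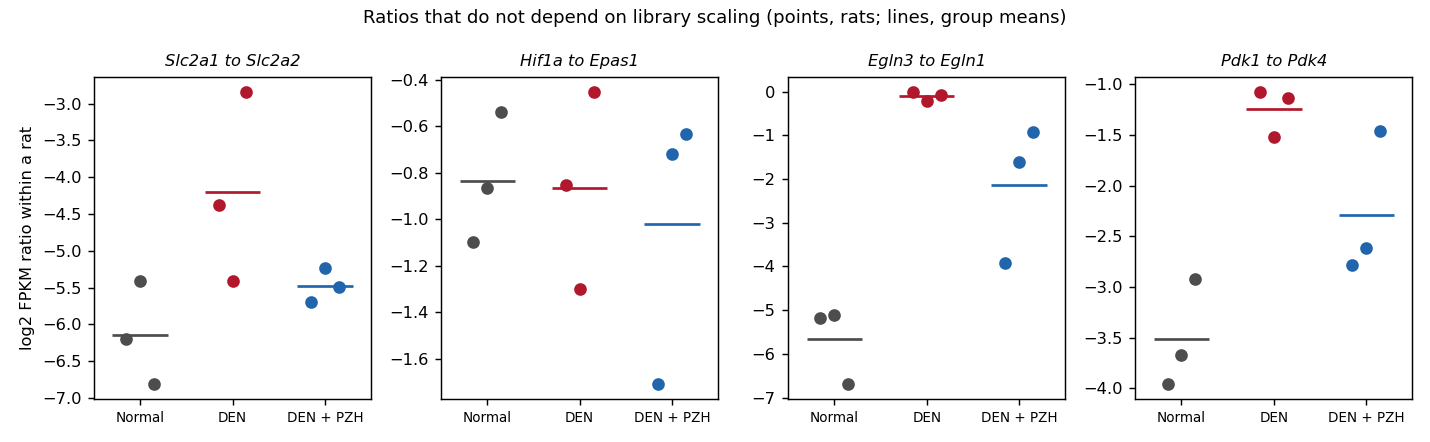
Log2 ratio of the FPKM of 2 genes within each rat (vertical axes differ between panels), with points for rats and lines for group means. The Egln3 to Egln1 ratio separates all 3 groups, while the Hif1a to Epas1 ratio overlaps in all of them.

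Of the targets, Ndrg1 (ENSRNOG00000007393, chromosome 7, 107734323 to 107775714), a stress gene linked to differentiation, was measured at 9.68, 11.1 and 5.12 CPM in the normal rats, 152, 58.1 and 164 CPM in M13, M17 and M24, and 21.0, 46.8 and 31.2 CPM in the PZH rats. The 3 groups did not overlap, although M17 lay far below the other DEN rats and near G28. Ndrg1 rose 14.6-fold with DEN (log2 fold change 3.87, SE 0.45, adjusted p = 0.000421). It fell with PZH relative to DEN by 1.90 on the log2 scale (SE 0.43, adjusted p = 0.0231), and this call was lost without G27, G42, M13 or M24 (adjusted p = 0.0597, 0.0721, 0.0812 and 0.0729). In PZH livers it was 3.85-fold above normal (log2 fold change 1.94, SE 0.36, adjusted p = 0.0187), lost without G28 (adjusted p = 0.0786), N1 (0.0728) or N3 (0.0501). The direction of each of these changes was the same with library totals.

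Adm (ENSRNOG00000027030, chromosome 1, 175445088 to 175447259) encodes adrenomedullin, a peptide that widens vessels. It stood at 1.17, 1.68 and 2.27 CPM in the normal rats (15, 22 and 27 counts), 16.1, 3.57 and 7.16 CPM in the DEN rats and 1.75, 2.57 and 2.49 CPM in the PZH rats. Every DEN rat lay above every other rat, and M17 was again the lowest of the 3. Adm rose 5.29-fold with DEN (log2 fold change 2.40, SE 0.56, adjusted p = 0.00865; 1.67 without M13, adjusted p = 0.0313) and fell by 1.96 on the log2 scale with PZH relative to DEN (SE 0.53, adjusted p = 0.0371). The second call was lost without M13 (log2 fold change -1.23, adjusted p = 0.136), without M24 (adjusted p = 0.0765) and without each of G27, G28 and G42 (0.098, 0.0879 and 0.0879). PZH and normal rats overlapped (log2 fold change 0.40, 95% interval -0.55 to 1.35, adjusted p = 0.687).

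Slc2a1 (ENSRNOG00000007284, chromosome 5, 138154673 to 138182897), the glucose transporter whose promoter window held 4 cores, was measured at 6.56, 13.1 and 8.06 CPM in the normal rats, 13.8, 9.61 and 26.8 CPM in M13, M17 and M24 and 9.39, 10.8 and 11.4 CPM in the PZH rats. M17 lay inside the normal range. The log2 fold change for DEN against normal was 0.87 (95% interval -0.06 to 1.81, adjusted p = 0.114). It was called without M17 (1.15, adjusted p = 0.035) and with library totals (1.79, adjusted p = 0.00706). For PZH against DEN it was -0.65 (-1.47 to 0.17, adjusted p = 0.234), called only with library totals (-1.37, adjusted p = 0.0278). Slc2a1 FPKM was 0.00891 to 0.0235 of that of Slc2a2, the usual glucose carrier of hepatocytes, in normal rats, 0.0235 to 0.140 in DEN rats and 0.0192 to 0.0266 in PZH rats. The log2 ratio was higher by 1.93 in DEN than in normal rats (exact permutation p = 0.1), with M17 and N12 nearly equal. With 0.1 FPKM added in place of 0.01, the difference was 1.90 (exact permutation p = 0.2). For PZH against DEN the log2 ratio differed by -1.27 (exact permutation p = 0.2), and these groups overlapped.

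Vegfa (ENSRNOG00000019598, chromosome 9, 17340341 to 17355681), the main growth factor of blood vessels, went the other way from Egln3 and Ndrg1. It stood at 179, 160 and 141 CPM in the normal rats, 104, 61.9 and 66.6 CPM in the DEN rats and 153, 80.2 and 68.1 CPM in G27, G28 and G42. On the CPM scale every DEN rat lay below every normal rat, and G27 stood apart from the other PZH rats. Vegfa was 2.04-fold lower with DEN (log2 fold change -1.03, SE 0.24, adjusted p = 0.00803), and -0.16 without a call with library totals (adjusted p = 0.63). PZH against DEN gave 0.41 (95% interval -0.39 to 1.20, adjusted p = 0.443), which turned to -0.31 with library totals and to -0.04 without G27. PZH against normal gave -0.67 (adjusted p = 0.28), and without G27 it was called lower, at -1.11 (adjusted p = 0.0123).

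Pdk1 (ENSRNOG00000001517, chromosome 3, 58530870 to 58558027) encodes a kinase that holds back the entry of pyruvate into mitochondrial oxidation. It was measured at 39.7, 46.7 and 48.9 CPM in the normal rats, 23.8, 30.4 and 22.6 CPM in the DEN rats and 35.0, 39.7 and 40.1 CPM in the PZH rats. On the CPM scale the DEN rats lay below all other rats. Pdk1 was 1.74-fold lower with DEN under TMM (log2 fold change -0.80, SE 0.18, adjusted p = 0.00795), but 0.05 on the log2 scale with library totals (adjusted p = 0.835). It was 1.52-fold higher with PZH than with DEN under TMM (0.60, SE 0.18, adjusted p = 0.0487), but -0.04 with library totals (adjusted p = 0.86). That second call was also lost without any one of G27, G28, G42, M13 and M24 (adjusted p = 0.0503 to 0.189), without a filter (0.0698) and with at least 10 counts in every rat (0.0572). Relative to the median of all genes, Pdk1 differed by -0.83 and -0.85 for DEN against normal under the 2 scalings, and by 0.60 and 0.62 for PZH against DEN. The FPKM ratio of Pdk1 to Pdk4, the kinase of the fasting liver, was higher in every DEN rat (0.349 to 0.476) than in every normal rat (0.0643 to 0.132), a log2 difference of 2.28 (exact permutation p = 0.1). For PZH against DEN the log2 difference was -1.04 (exact permutation p = 0.2), and these groups overlapped. Mean FPKM of Pdk1 was 22.1 in normal and 22.8 in DEN rats, and that of Pdk4 was 261 and 54.5. The ratio thus moved with Pdk4 between these 2 groups. According to the paper, the rats were fasted before collection.

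Bnip3 (ENSRNOG00000017243, chromosome 1, 211248098 to 211265282), a mitophagy receptor whose window also held 4 cores, stood at 89.9, 106 and 125 CPM in the normal rats, 98.6, 88.7 and 69.6 CPM in the DEN rats and 84.0, 77.7 and 94.4 CPM in the PZH rats. All 3 groups overlapped on the CPM scale. In FPKM, which rests on library totals, the DEN rats (63.4 to 86.3) lay above the normal rats (42.1 to 53.7) and the PZH rats (42.5 to 52.3). The log2 fold change was -0.31 for DEN against normal (95% interval -0.79 to 0.17, adjusted p = 0.263) and 0.56 with library totals, where it was called (adjusted p = 0.0398). With PZH against DEN it was 0.02 (-0.42 to 0.46, adjusted p = 0.957) and -0.64 with library totals, where it was called (adjusted p = 0.039). For PZH against normal it was -0.33 (-0.79 to 0.14, adjusted p = 0.458).

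**Figure D3:**
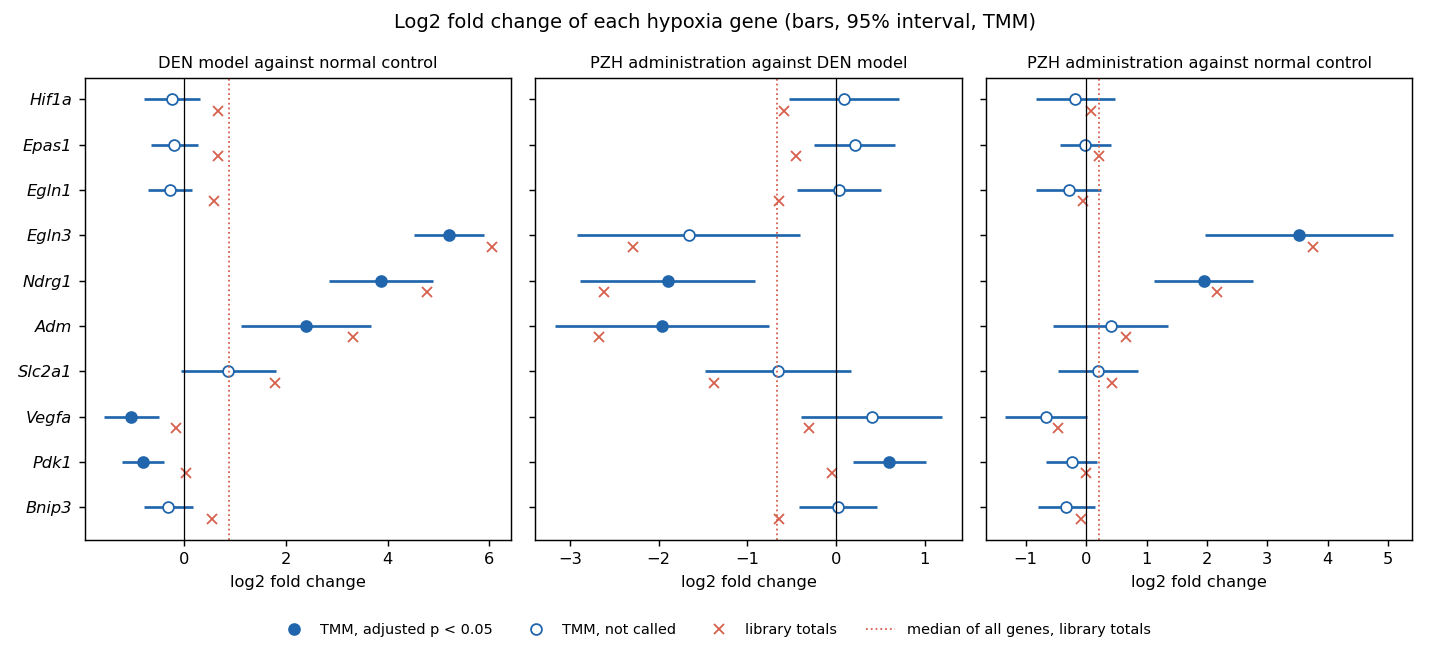
Log2 fold change of each member in the 3 comparisons (horizontal axes differ), with bars for the 95% interval under TMM, filled circles for an adjusted p under 0.05, crosses for library totals and a dotted line for the median of all genes under library totals. In DEN against normal, Egln3, Ndrg1 and Adm have the highest log2 fold changes of the members under both scalings. The interval of Adm (1.12 to 3.68) overlaps that of Slc2a1 (-0.06 to 1.81). The signs of Hif1a, Epas1, Egln1, Bnip3 and Pdk1 differ between the scalings there.

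The wider pathway lists include the members and were not tested as sets, so their counts stand beside the shares over all genes. With DEN against normal, 25.3% of all genes were called higher and 20.5% lower (57% and 6.72% with library totals). With PZH against DEN, 8.72% were called higher and 10.3% lower (3.9% and 39.9% with library totals). Of the 10 genes of HIF subunits and oxygen sensing that were tested, 3 were called higher and 1 lower with DEN (6 higher and 0 lower with library totals). Egln2, the remaining prolyl hydroxylase, had a log2 fold change of -1.28 (adjusted p = 0.0047), and -0.44 without a call with library totals. Vhl rose by 0.56 (adjusted p = 0.036). Arnt2, a partner of the alpha subunits, was at 0 counts in all normal rats and at least 4.60-fold higher with DEN against a floor of 3 counts. The list's median log2 fold change was -0.21, against 0.03 over all genes tested. With PZH against DEN, 0 of these 10 genes were called by edgeR, and 2 had an unadjusted p under 0.05, whereas 4 were called lower with library totals and Egln3 was called with all 9 rats in 1 fit and with DESeq2.

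Of the 18 glycolysis genes, 8 were called higher and 2 lower with DEN, with a median log2 fold change of 0.79 (15 higher and 1 lower with library totals). The shares over all genes were 25.3% and 20.5% with DEN (57% and 6.72% with library totals). For PZH against DEN they were 8.72% and 10.3% (3.9% and 39.9% with library totals). Pfkp, a phosphofructokinase, rose by 3.56 (adjusted p = 0.00063) and Pkm, a pyruvate kinase, by 3.14 (adjusted p = 0.00065), whereas Ldha, lactate dehydrogenase A, fell by 1.92 (adjusted p = 0.0012) and kept its sign with library totals (-1.07). Hk1, a hexokinase, rose by 2.98 (adjusted p = 0.00021). With PZH against DEN, 2 were called higher and 7 lower with a median of -0.54 (0 and 13 with library totals), among them Slc16a3, which exports lactate, at -2.32 (adjusted p = 0.039), and Pkm at -2.31 (adjusted p = 0.014), while Ldha was 0.91 higher (adjusted p = 0.037; 0.27 with library totals).

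The vascular list held 15 tested genes, of which 11 were called higher and 3 lower with DEN, with a median of 1.73 (12 and 0 with library totals). The shares over all genes were 25.3% and 20.5% with DEN (57% and 6.72% with library totals). For PZH against DEN they were 8.72% and 10.3% (3.9% and 39.9% with library totals). The receptor side of Adm moved with it in part. Ramp2 was higher by 1.76 (adjusted p = 0.0021), Ramp3, at or near 0 in normal rats, was at least 15.8-fold higher, and Calcrl gave 0.27 (adjusted p = 0.28). Kdr, the main receptor for Vegfa, had a log2 fold change of -1.15 (adjusted p = 0.015; -0.32 without a call with library totals), Flt1 rose by 0.52 (adjusted p = 0.046), and Edn1, endothelin, was at least 15.3-fold higher. With PZH against DEN, 1 was called higher and 7 lower, with a median of -0.97 (0 and 12 with library totals), Ramp3 lowest at -3.55 (adjusted p = 0.023) and Vegfb the 1 called higher at 0.90 (adjusted p = 0.035; 0.20 without a call with library totals).

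Of the 15 targets for mitochondria, pH and stress, 8 were called higher and 1 lower with DEN, with a median of 0.58 (13 and 0 with library totals). The shares over all genes were 25.3% and 20.5% with DEN (57% and 6.72% with library totals). For PZH against DEN they were 8.72% and 10.3% (3.9% and 39.9% with library totals). Car9, a carbonic anhydrase of hypoxic cells, rose by 4.41 (adjusted p = 0.0006), and Higd1a, a mitochondrial protein, had a log2 fold change of -0.70 under TMM (adjusted p = 0.011) but 0.14 with library totals. With PZH, 0 were called higher and 4 lower than in DEN rats, with a median of -0.66 (0 and 11 with library totals). Of the 6 collagen-modifying targets, 3 were called higher and 1 lower with DEN (4 and 0 with library totals), and 0 and 3 with PZH against DEN (0 and 5 with library totals). P4ha2, a collagen prolyl hydroxylase, had a log2 fold change of -1.03 under TMM (adjusted p = 0.011) and -0.19, without a call, with library totals. Plod2, a collagen lysyl hydroxylase, rose by 5.05 (adjusted p = 0.00015), fell by 2.22 with PZH (adjusted p = 0.016) and was still 2.79 above normal (adjusted p = 0.0041). In PZH against normal rats, 1 of 9 tested sensing genes, 1 of 16 glycolysis, 0 of 14 vascular, 1 of 13 mitochondrial and 1 of 6 collagen genes were called higher, and 1 glycolysis gene (Ldha, -1.04, adjusted p = 0.024) was called lower. Over all genes, 4.07% were called higher and 1.15% lower in that comparison.

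**Figure D4:**
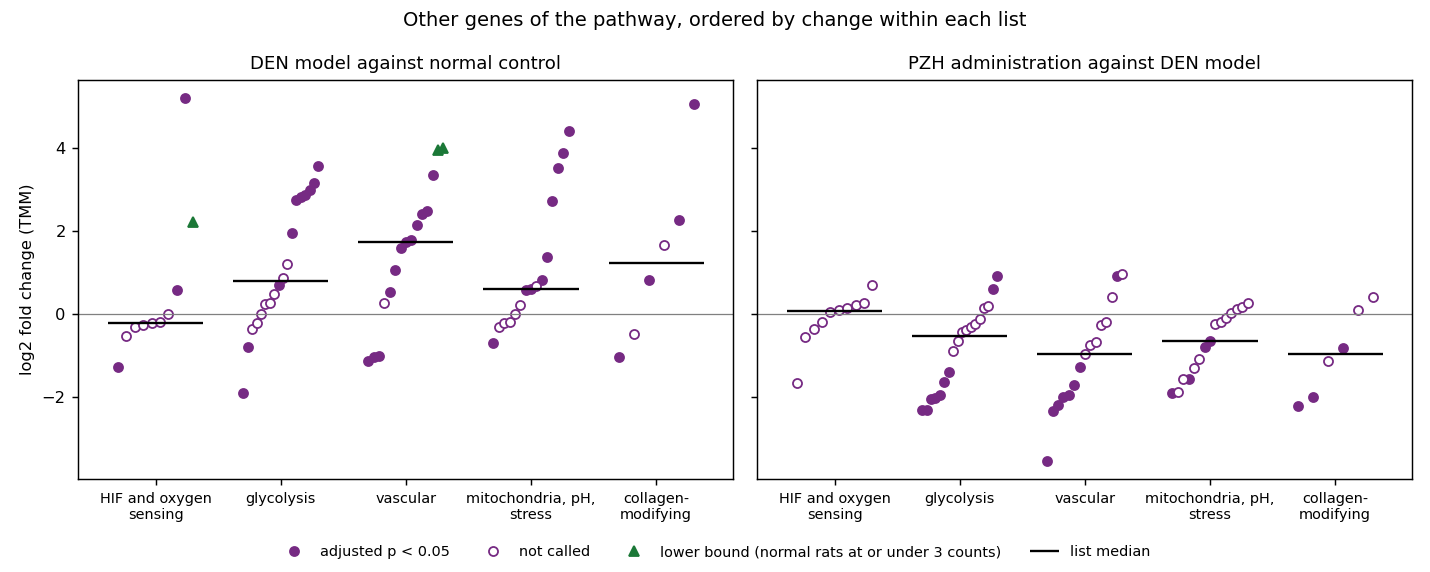
Log2 fold change (TMM) of each tested gene of the 5 pathway lists for DEN against normal and PZH against DEN, with filled circles for an adjusted p under 0.05, triangles for lower bounds and lines for list medians. The glycolysis, vascular, mitochondria and collagen medians lie above 0 in the first panel and below 0 in the second, and the sensing list stays near 0 in both under TMM.

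The members' relatives often moved differently from them. Of 13 paralogs tested with DEN, 4 were called higher and 6 lower (6 and 2 with library totals). The shares over all genes were 25.3% and 20.5% with DEN (57% and 6.72% with library totals). For PZH against DEN they were 8.72% and 10.3% (3.9% and 39.9% with library totals). Vegfd rose by 4.44 (adjusted p = 0.00018) and Vegfc by 1.06 (adjusted p = 0.0046), while Vegfa and Vegfb (log2 fold change -1.02, adjusted p = 0.0072; -0.14 without a call with library totals) were lower under TMM. Pdk4 fell by 3.06 (adjusted p = 0.00033) and Pdk3 rose by 3.001 (adjusted p = 0.00023), each with the same sign under library totals. Ndrg2 fell by 2.53 (adjusted p = 0.0013) where Ndrg1 rose. With PZH against DEN, 3 paralogs were called higher and 3 lower (2 and 4 with library totals), Ndrg2 highest at 1.82 (adjusted p = 0.019) and Vegfd lowest at -2.35 (adjusted p = 0.0093). Against normal rats, PZH rats still had more Vegfd (2.05, adjusted p = 0.028) and Pdk3 (1.72, adjusted p = 0.036) and less Pdk4 (-1.40, adjusted p = 0.045; adjusted p = 0.067 with library totals).

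The genes most like each member over the 9 rats were read from Pearson's r of log2 CPM, a description in which the rats share their group and their library scaling. For Egln3 these were Trim59 (r = 0.994), Tspan2 (0.991), Greb1 (0.991), Gdf6 (0.991) and Col4a5 (0.990). For Ndrg1 they were Prkar2b (0.995), Akr1b1 (0.992) and Emp2 (0.990), and for Pdk1 they were Nadk (0.993), Acot12 (0.993) and Ptprd (0.992). Adm was most like AABR07033570.2 (0.973), Spats2l (0.970) and Sav1 (0.965), Slc2a1 most like Tln2 (0.962), Plek2 (0.944) and Sh2d2a (0.931), and Vegfa most like Arid3b (0.974), Fabp7 (0.967) and Pkp3 (0.964). Hif1a was most like Akirin1 (0.983), Epas1 most like Slc35d2 (0.950), Egln1 most like Pyroxd1 (0.954) and Bnip3 most like Mtus1 (0.948).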

How the data were processed

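Liver RNA was purified with a column kit, reverse transcribed and sequenced by the authors, with 1 library for each of 9 rats. The submitters' processing notes name fastp, HISAT2 2.1.0, StringTie 1.3.3b and edgeR 3.30.3, with no role or order. The read counter's strand setting and the genome build are not given in the sources used here. Whether reads of overlapping antisense genes were kept apart is therefore not known. The deposited counts are whole reads assigned to each gene, without normalization. The deposited FPKM columns hold the same counts divided by the authors by transcript length and by the library total, as a check of counts against FPKM in expressed genes showed. The authors' own fold changes, P-values and Q-values stand in the same table and were not used, and 0 per-sample columns were left out.

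Counts were tested in R 4.3.3 with edgeR 4.0.16 (filterByExpr, TMM, quasi-likelihood test, no covariates, 6 rats in each fit), with Benjamini-Hochberg adjustment over all genes tested, and a gene was called at an adjusted p under 0.05. The 95% intervals come from the same fit. Values per rat are CPM with TMM factors of all 9 rats. Ratios are log2 of FPKM + 0.01, with + 0.1 as an alternative, tested by exact two-sided permutation. Where every rat of a group had 3 counts or fewer, the fold was taken against a floor of 3 counts per library and is a lower bound. Alternatives were DESeq2 1.42.0, library totals, no filter, at least 10 counts in every rat, all 9 rats in 1 fit, limma 3.58.1 on log2(FPKM + 0.1) and log2(FPKM + 1), and leaving out each rat. The code was checked on simulated data. Promoter windows and their coordinates are RefSeq's, of GRCr8, a build that need not be that of the deposited positions.

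Named are all members, the pathway genes with a stated role, the called genes with the largest and smallest change in each list, and the 5 (Egln3) or 3 genes most like each member. The members and lists were chosen with earlier results of these data known. The rats are separate animals, and groups were taken from the rats' names.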

Additional observations from a re-analysis of the deposited data

How the results depend on the processing

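Library scaling decided the direction of small changes. Library totals and limma on log2(FPKM + 0.1) and log2(FPKM + 1), which rest on the same totals, are given in that order where 3 values follow each other. For DEN against normal, the log2 fold change turned to 0.58, 0.58 and 0.56 for Egln1, 0.67, 0.63 and 0.61 for Hif1a, 0.66, 0.66 and 0.65 for Epas1, 0.56, 0.55 and 0.54 for Bnip3, and 0.0467, 0.0476 and 0.0457 for Pdk1. For PZH against DEN it turned to -0.64, -0.65 and -0.62 for Egln1, -0.59, -0.60 and -0.58 for Hif1a, -0.45, -0.45 and -0.44 for Epas1, -0.31, -0.32 and -0.31 for Vegfa, -0.64, -0.63 and -0.62 for Bnip3, and -0.0440, -0.0479 and -0.0458 for Pdk1. For PZH against normal it turned to 0.0817, 0.0284 and 0.0299 for Hif1a and 0.21, 0.21 and 0.21 for Epas1, and to 0.00305 for Pdk1 with library totals. With at least 10 counts in every rat, Egln1 gave -0.00217 and Bnip3 -0.0146 for PZH against DEN and Epas1 0.0259 for PZH against normal, and with all 9 rats in 1 fit Bnip3 gave -0.00524 for PZH against DEN.

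The number of members called for DEN against normal went from 5 to 8 with library totals. The PZH against DEN count went from 3 to 6 with library totals and to 5 and 5 with limma, and fell to 2 without a filter and to 2 with at least 10 counts in each rat, where Pdk1 lost its call. For PZH against normal it went from 2 to 1 with at least 10 counts in every rat and to 1 with limma on log2(FPKM + 1). At the study's thresholds the count for DEN against normal went from 2 to 1 under the filter of at least 10 counts in each rat, which leaves Egln3 untested because N3 had 8 counts. That count rose to 3, with Adm passing too, under DESeq2, library totals, all 9 rats in 1 fit, both limma settings and without M17. For PZH against DEN it went from 0 to 2 with library totals and to 1 and 1 with limma. For PZH against normal it went from 1 to 2 with library totals, 0 with at least 10 counts in every rat and 0 with limma on log2(FPKM + 1).

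When single rats were left out, 0 to 3 members were called for PZH against DEN, where 1.87% to 22.6% of all genes were, and 0 to 3 for PZH against normal, where 1.51% to 9.73% were. At the study's thresholds the counts were 0 to 2 and 0 to 2. The DEN against normal count stayed at 5 to 6. The log2 ratio of Hif1a to Epas1 ranged from -0.24 to 0.18 for DEN against normal, -0.37 to 0.19 for PZH against DEN and -0.38 to 0.16 for PZH against normal. For PZH against DEN the log2 fold change ranged from -0.10 to 0.17 for Egln1, -0.0909 to 0.32 for Hif1a, -0.0404 to 0.67 for Vegfa and -0.11 to 0.13 for Bnip3. For PZH against normal it ranged from -0.38 to 0.0585 for Hif1a, -0.0922 to 0.0480 for Epas1 and -0.0223 to 0.51 for Slc2a1.

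Of the members' other log2 fold changes, 149 kept their direction and call across the settings that keep every rat, 9 gained a call and 6 lost one. With a rat left out, 144 kept both, 4 gained a call and 21 lost one. No paired analysis was possible because the rats of the groups are separate animals, which the paper says were divided at random. Groups of 3 rats limit each call, and 8 to 27 counts of Egln3 and Adm in normal rats limit the precision of their folds.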
